A study of Homo sapiens with 10 samples.

Results

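The 10 genes described here encode enzymes that build purine and pyrimidine nucleotides from small precursors. They are PPAT, GART, PFAS, PAICS, ADSL, ATIC and IMPDH2 for purines, and CAD, DHODH and UMPS for pyrimidines. They were chosen by gene symbol, with earlier results of these data known. All 10 were found among the 59386 genes counted in every library. The RNA came from VCaP, a human prostate cancer cell line, collected 72 h after siRNA transfection. SMARCA4, the ATPase of SWI/SNF chromatin remodelers, was knocked down with siRNA A or siRNA B, and SMARCA1, an ATPase of ISWI remodelers, with siRNA A or siRNA C. Each targeting siRNA was given at 30 pmol with a lipid reagent. The control libraries carry the genotype label WT, and the labels do not name what they were transfected with. There were 2 libraries for each siRNA and 2 controls, 10 libraries in all, from 1 cell line. Nothing in the labels says that replicates were separate cultures. The p-values and standard errors therefore measure only the spread between libraries of the same siRNA or control group. The spread between the 2 siRNAs of a target is not part of them.

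Most of the enzymes fell in both knockdowns. After SMARCA4 knockdown 10 of 10 were called lower (adjusted p below 0.05, edgeR quasi-likelihood test), where 22.3% of all tested genes were. After SMARCA1 knockdown 9 of 10 were called lower, all but GART, where 23% of all tested genes were, and this count fell to 4 without control replicate 1 and to 5 without control replicate 2. In SMARCA4 against SMARCA1 knockdown 9 of 10 were called lower, all but ADSL, where 19.1% of all tested genes were. PAICS fell the most among them in SMARCA4 knockdown, to 29.7% of its control level.

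As background, the purine ring is assembled on phosphoribosyl pyrophosphate by a chain of enzymes that starts with PPAT and ends with ATIC, which releases inosine monophosphate. IMPDH2 then commits inosine monophosphate to guanine nucleotides. The pyrimidine ring is made first and attached to the ribose afterwards, by CAD, DHODH and UMPS, which yields uridine monophosphate. Dividing cells, cancer cells among them, rely on these routes for RNA, DNA and nucleotide sugars.

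Library totals lay between 23898545 and 34667965 counts, and a floor of 3 counts, up to which a count of 0 could reach, was worth 0.0865 to 0.126 CPM (a gene's counts relative to the library total, here scaled by TMM, a normalization to the bulk of genes). The floor covers counting error only. The intervals given for log2 fold changes come from the edgeR fit and take in the spread between libraries of the same group. The targets were lowered in every library labelled for them. SMARCA4 lay between 13.3 and 25.2 CPM in its knockdown against 242 and 267 CPM in the controls, and SMARCA1 between 1.75 and 3.40 CPM in its knockdown against 32.3 and 31.4 CPM. All 10 VCaP and prostate markers examined, KLK3 and ERG among them, passed the filter on low counts. Together they held 0.989% and 1.01% of counts in the controls, between 0.886% and 1.04% in SMARCA4 and between 0.824% and 0.919% in SMARCA1 knockdown. Single markers moved within that sum. In SMARCA4 knockdown 2 of the 10 were called lower and 3 higher, near the 22.3% and 22.8% of all tested genes. In SMARCA1 knockdown 5 were called lower and 1 higher, where 23% and 23.8% of all tested genes were. KRT8, an epithelial keratin, rose by 1.66 (adjusted p = 0.000249) and 1.99 (adjusted p = 0.000138) on the log2 scale, and FOLH1, a prostate membrane antigen, fell to 55.2% and 29.1% of its control level. Of 7 markers of blood, endothelial and stromal cells, between 1 and 3 were at 0 in each library. Their summed level was 5.14 and 12.1 CPM in the controls, between 7.60 and 15.04 CPM in SMARCA4 and between 8.65 and 19.1 CPM in SMARCA1 knockdown. Most of this sum in every library was COL1A1, a collagen gene of stromal cells, at 4.14 and 7.13 CPM in the controls. COL1A1 lay between 5.87 and 14.1 CPM in SMARCA4 and between 8.04 and 18.5 CPM in SMARCA1 knockdown. Of the 5 of these 7 markers that passed the filter, 1 was called higher in SMARCA4 knockdown, where 22.8% of all tested genes were. In SMARCA1 knockdown 2 of the 5 were called lower and 1 higher, where 23% and 23.8% of all tested genes were. The part of these markers in the results was not tested. PTPRC and CD3E, which define blood cells and T cells, had at most 1 count in any library.

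In the controls the enzymes differed widely in level per exon length (TPM, which divides counts by exon length and scales every library to the same sum). IMPDH2 was the highest, at 268 and 278 TPM, and PAICS came next at 213 and 204 TPM. GART followed at 151 and 156 TPM, and ATIC at 86.4 and 87.7 TPM. CAD, at 54.7 and 58.2 TPM, and PPAT, at 57.7 and 51.5 TPM, overlapped, so their order was not resolved. UMPS stood at 34.8 and 34.7 TPM, and PFAS at 17.6 and 17.4 TPM. DHODH, at 8.13 and 8.47 TPM, and ADSL, at 5.97 and 5.48 TPM, were the lowest. The length used is that of all annotated exons of a gene, so exons that VCaP cells do not use lower these values. In SMARCA4 knockdown the top of this order was different. GART lay between 96.6 and 128 TPM there and overlapped IMPDH2, between 87.8 and 115 TPM. PAICS lay between 52.2 and 77.1 TPM and overlapped ATIC, between 52.8 and 61.4 TPM. In SMARCA1 knockdown IMPDH2 (166 to 202 TPM), GART (119 to 150 TPM), PAICS (81.8 to 101 TPM) and ATIC (68.0 to 71.8 TPM) did not overlap.

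**Figure D1:**
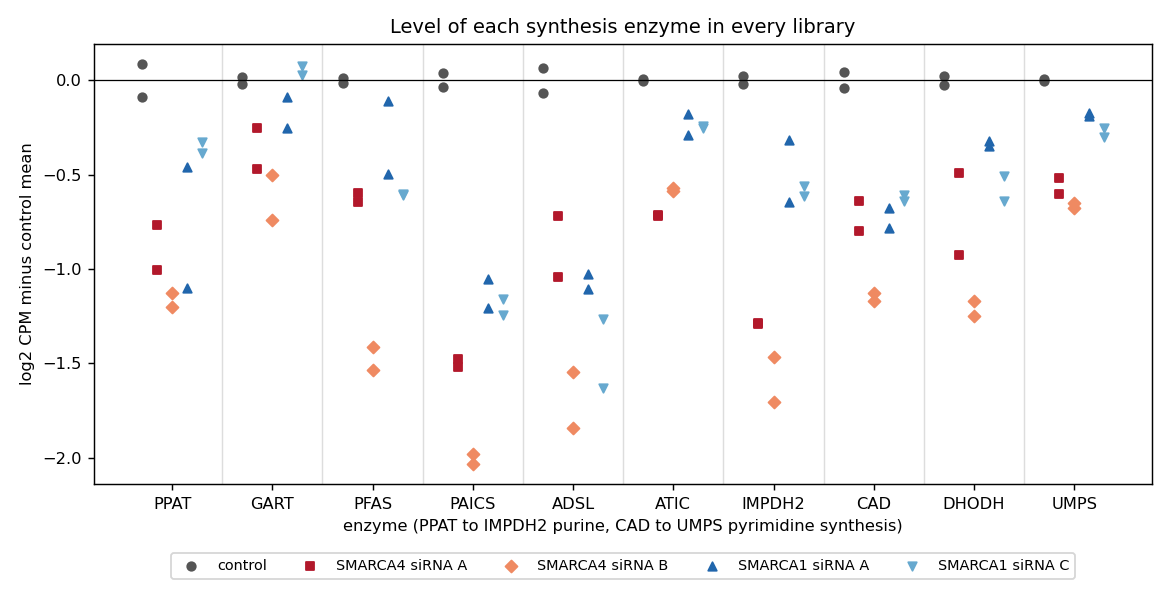
Level of each enzyme in each of the 10 libraries, as log2 CPM minus the mean of the 2 control libraries (y axis), with 1 point per library and the enzymes along the x axis. The SMARCA4 knockdown points lie under both controls for all 10 enzymes, as for 29% of all tested genes. The SMARCA1 knockdown points do so for all enzymes but GART, as for 29.1% of all tested genes.

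The first reaction is catalysed by PPAT, which places an amino group on phosphoribosyl pyrophosphate and is the regulated entry of the purine route. PPAT stood at 71.8 and 63.7 CPM in the controls. The SMARCA4 siRNA A libraries held 39.7 and 33.6 CPM, and those of siRNA B 30.9 and 29.4 CPM. Values were 31.5 and 49.1 CPM under SMARCA1 siRNA A and 51.7 and 54.0 CPM under siRNA C. Every knockdown library was below both controls, and the lower SMARCA1 siRNA A library reached into the SMARCA4 range. The log2 fold change of PPAT was −1.03 ± 0.15 (SE, adjusted p = 0.000538) after SMARCA4 and −0.55 ± 0.16 (adjusted p = 0.0151) after SMARCA1 knockdown. The difference between the knockdowns was −0.47 ± 0.13 (adjusted p = 0.0192).

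GART carries several early activities of the route on 1 protein, one of which uses a folate cofactor. GART was at 268 and 276 CPM in the controls. Values were 228 and 196 CPM under SMARCA4 siRNA A and 192 and 163 CPM under siRNA B. The SMARCA1 siRNA A libraries held 228 and 255 CPM, and those of siRNA C 286 and 277 CPM. The SMARCA4 libraries were all below the controls, whereas the SMARCA1 siRNA C libraries were above them. GART had the smallest fall of the 10 enzymes in SMARCA4 knockdown, at a log2 value of −0.49 ± 0.10 (adjusted p = 0.00399). In SMARCA1 knockdown its log2 fold change was −0.06, with a 95% interval from −0.30 to 0.18 (adjusted p = 0.669). Between the knockdowns GART differed by −0.43 ± 0.09 (adjusted p = 0.00464).

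PFAS, which adds the second nitrogen from glutamine, was at 26.1 and 25.6 CPM in the controls. Values were 16.5 and 17.0 CPM under SMARCA4 siRNA A and 9.67 and 8.87 CPM under siRNA B. The SMARCA1 siRNA A libraries held 18.3 and 24.0 CPM, and those of siRNA C 17.0 and 16.9 CPM. The siRNA B libraries of SMARCA4 held the lowest PFAS of all, and SMARCA4 siRNA A overlapped with SMARCA1 siRNA C. The log2 fold change of PFAS was −1.05 ± 0.12 (adjusted p = 0.000107) in SMARCA4 knockdown, −0.45 ± 0.12 (adjusted p = 0.0120) in SMARCA1 knockdown and −0.60 ± 0.10 (adjusted p = 0.00172) between them.

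PAICS joins a carboxylation and the following condensation with aspartate in 1 protein. PAICS was at 367 and 349 CPM in the controls. The SMARCA4 siRNA A libraries held 125 and 129 CPM, and those of siRNA B 90.5 and 87.3 CPM. Values were 155 and 172 CPM under SMARCA1 siRNA A and 160 and 151 CPM under siRNA C. The groups separated completely, with the controls on top, SMARCA1 knockdown in the middle and SMARCA4 knockdown below. The log2 fold change of PAICS was −1.75 ± 0.09 (adjusted p = 1.22e-06) in SMARCA4 knockdown, a 3.37-fold fall, and −1.16 ± 0.09 (adjusted p = 1.49e-05) in SMARCA1 knockdown, a 2.24-fold fall. Between the knockdowns it differed by −0.59 ± 0.07 (adjusted p = 0.000356). Ordered from the strongest fall, PAICS was number 248 of the 16899 genes tested in SMARCA4 knockdown and number 1008 in SMARCA1 knockdown.

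ADSL cleaves fumarate from intermediates of both the main route and the adenine branch. ADSL was at 16.5 and 15.1 CPM in the controls. The SMARCA4 siRNA A libraries held 7.64 and 9.55 CPM, and those of siRNA B 4.36 and 5.36 CPM. Values were 7.73 and 7.31 CPM under SMARCA1 siRNA A and 5.05 and 6.53 CPM under siRNA C. The ranges of the 2 knockdowns overlapped. ADSL fell in each, with log2 fold changes of −1.29 ± 0.15 (adjusted p = 0.000125) in SMARCA4 and −1.26 ± 0.15 (adjusted p = 0.000187) in SMARCA1 knockdown. The difference between the knockdowns was −0.03, with a 95% interval from −0.32 to 0.26 (adjusted p = 0.871). ADSL rested on the fewest reads, between 141 and 406 counts per library, and 11.1% of its exon bases also belong to a readthrough gene on the same strand, where a read may be assigned to neither gene.

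ATIC performs the last 2 reactions, a folate-dependent formyl transfer and ring closure. ATIC was at 74.9 and 75.6 CPM in the controls. Values were 45.8 and 45.6 CPM under SMARCA4 siRNA A and 50.01 and 50.6 CPM under siRNA B. The SMARCA1 siRNA A libraries held 66.4 and 61.5 CPM, and those of siRNA C 63.5 and 63.2 CPM. As for PAICS, the 3 conditions did not overlap. The log2 fold change of ATIC was −0.65 ± 0.08 (adjusted p = 0.000201) in SMARCA4 knockdown, −0.24 ± 0.08 (adjusted p = 0.0375) in SMARCA1 knockdown and −0.41 ± 0.07 (adjusted p = 0.00176) between them.

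IMPDH2, the rate-limiting enzyme of guanine nucleotide synthesis, was at 314 and 324 CPM in the controls. Values were 130 and 131 CPM under SMARCA4 siRNA A and 115 and 97.8 CPM under siRNA B. The SMARCA1 siRNA A libraries held 256 and 204 CPM, and those of siRNA C 216 and 209 CPM. The highest SMARCA4 library was well under the lowest SMARCA1 library. The log2 fold change of IMPDH2 was −1.43 ± 0.11 (adjusted p = 1.18e-05) after SMARCA4 and −0.53 ± 0.11 (adjusted p = 0.00341) after SMARCA1 knockdown. The difference between the knockdowns, −0.90 ± 0.09 (adjusted p = 0.000151), was the widest among the 10 enzymes.

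The pyrimidine route begins with CAD, a single protein with the first 3 activities. CAD was at 106 and 112 CPM in the controls. The SMARCA4 siRNA A libraries held 62.4 and 69.8 CPM, and those of siRNA B 49.8 and 48.3 CPM. Values were 63.2 and 68.0 CPM under SMARCA1 siRNA A and 69.7 and 71.2 CPM under siRNA C. SMARCA4 siRNA A overlapped with the SMARCA1 libraries, and siRNA B lay below them. The log2 fold change of CAD was −0.93 ± 0.09 (adjusted p = 3.74e-05) in SMARCA4 knockdown, −0.68 ± 0.09 (adjusted p = 0.000294) in SMARCA1 knockdown and −0.26 ± 0.07 (adjusted p = 0.0238) between them.

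DHODH, which oxidises dihydroorotate in the inner mitochondrial membrane and passes the electrons to ubiquinone, was at 12.9 and 13.3 CPM in the controls. The SMARCA4 siRNA A libraries held 6.88 and 9.30 CPM, and those of siRNA B 5.47 and 5.79 CPM. Values were 10.3 and 10.5 CPM under SMARCA1 siRNA A and 9.21 and 8.39 CPM under siRNA C. One SMARCA4 siRNA A library reached the level of SMARCA1 siRNA C. The log2 fold change of DHODH was −0.96 ± 0.14 (adjusted p = 0.000391) in SMARCA4 knockdown, −0.46 ± 0.14 (adjusted p = 0.0202) in SMARCA1 knockdown and −0.50 ± 0.12 (adjusted p = 0.00842) between them.

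UMPS, which attaches the ring to ribose and then removes a carboxyl group, was at 59.8 and 59.3 CPM in the controls. Values were 39.2 and 41.5 CPM under SMARCA4 siRNA A and 37.9 and 37.2 CPM under siRNA B. The SMARCA1 siRNA A libraries held 52.2 and 52.8 CPM, and those of siRNA C 49.96 and 48.3 CPM. The 3 conditions did not overlap, and the replicates of each siRNA lay close together. The log2 fold change of UMPS was −0.61 ± 0.08 (adjusted p = 0.000297) in SMARCA4 knockdown, −0.23 ± 0.08 (adjusted p = 0.0471) in SMARCA1 knockdown and −0.38 ± 0.07 (adjusted p = 0.00256) between them.

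Counted together, all 10 enzymes were called lower in SMARCA4 knockdown (adjusted p below 0.05, edgeR quasi-likelihood test), against a background of 22.3% of the 16899 tested genes called lower. In SMARCA1 knockdown 9 of 10 were called lower, against a background of 23%. In the direct comparison 9 of 10 were called lower in SMARCA4 than in SMARCA1 knockdown, against a background of 19.1%. Its fold changes compare knockdown libraries only, but the filter, the normalization and the shared spread take in the controls. The median log2 fold change of the 10 enzymes was −0.99 after SMARCA4 and −0.49 after SMARCA1 knockdown, beside 0.0022 and −0.0035 over all tested genes. Between the knockdowns the median was −0.45, beside −0.013 over all tested genes. The comparisons with control share the same 2 control libraries. The set was chosen with earlier results of these data known, so its counts beside the background are a description and not an independent test. By level, the 4 SMARCA4 libraries were all below both controls for 10 of 10 enzymes, as for 29% of all tested genes. The 4 SMARCA1 libraries were so for 9 of 10, as for 29.1% of all tested genes. The 4 SMARCA4 libraries were all below the 4 SMARCA1 libraries for 5 of 10 enzymes, GART, PAICS, ATIC, IMPDH2 and UMPS, as for 13.8% of all tested genes, and for GART the gap was small (227.9 against 228.0 CPM).

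The calls of the knockdowns differed in how far they rested on single libraries. Without control replicate 1, 4 enzymes remained called in SMARCA1 knockdown (PAICS, ADSL, IMPDH2 and CAD), and without control replicate 2, 5 remained, PPAT being the other. ATIC and UMPS also lost their SMARCA1 call with DESeq2, with adjusted p of 0.0509 and 0.0729, and when either SMARCA1 siRNA C library or any SMARCA4 library was left out, and DHODH lost it without SMARCA1 siRNA C replicate 2. Between the knockdowns, PPAT lost its call without SMARCA1 siRNA C replicate 2, SMARCA4 siRNA A replicate 2 or SMARCA4 siRNA B replicate 2. CAD lost its call between the knockdowns without either SMARCA1 siRNA C library, SMARCA4 siRNA A replicate 1 or either SMARCA4 siRNA B library. In SMARCA4 knockdown all 10 stayed called whichever library was left out.

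The share of all counts held by the 10 enzymes was 0.132% and 0.133% in the controls, between 0.0871% and 0.0913% in SMARCA1 knockdown and between 0.0548% and 0.0697% in SMARCA4 knockdown. Interferon response genes moved in the same libraries, in the other direction. All 20 interferon response genes listed rose in both knockdowns, and their summed share went from 0.0273% and 0.0281% of counts in the controls to between 2.22% and 4.12% in SMARCA1 and between 1.57% and 4.11% in SMARCA4 knockdown. With these genes left out of the normalization and the totals, 10 enzymes were still called in SMARCA4 knockdown and 8 in SMARCA1 knockdown, and PAICS had log2 fold changes of −1.73 and −1.15. What part the interferon response has in the fall of the enzymes was not tested. In bulk RNA, fewer cells making a transcript and less of it per cell cannot be told apart.

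**Figure D2:**
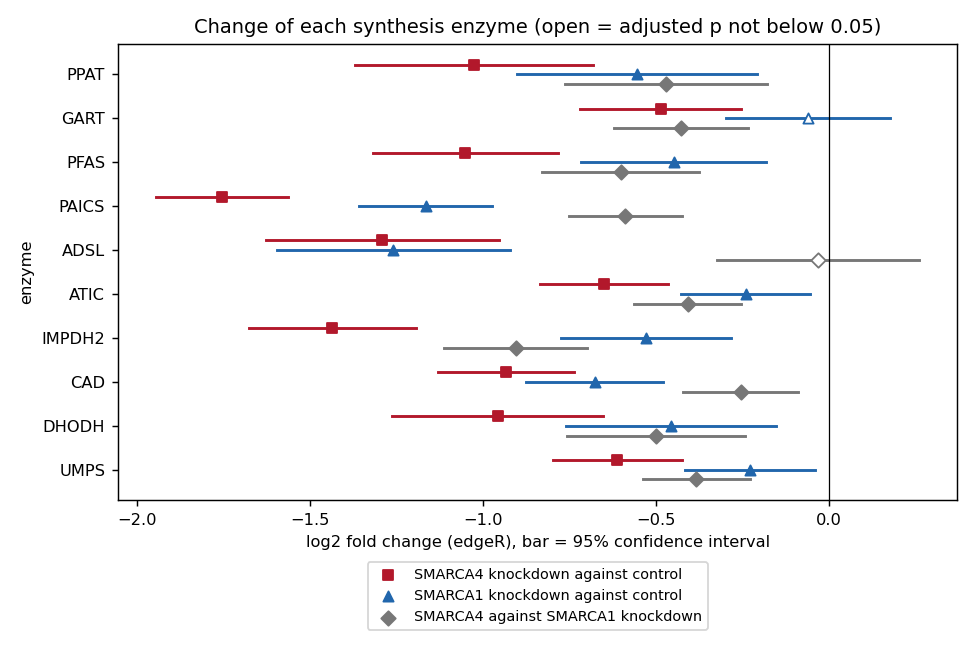
Log2 fold change (x axis) of each enzyme (y axis) in SMARCA4 knockdown against control, SMARCA1 knockdown against control and SMARCA4 against SMARCA1 knockdown, with bars for the 95% confidence interval and open symbols where the adjusted p was not below 0.05. The open symbols are GART in SMARCA1 knockdown and ADSL in the direct comparison, and PAICS lies farthest to the left in SMARCA4 knockdown at −1.75.

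Each siRNA was also compared with the controls alone. With SMARCA4 siRNA A 10 of 10 enzymes were called lower (15.8% of all tested genes), and with SMARCA4 siRNA B also 10 of 10 (21.9% of all tested genes). With SMARCA1 siRNA A 5 of 10 were called lower, PPAT, PAICS, ADSL, IMPDH2 and CAD (16.3% of all tested genes). With SMARCA1 siRNA C 7 of 10 were called lower, PFAS, PAICS, ADSL, IMPDH2, CAD, DHODH and UMPS (21.5% of all tested genes). PAICS, ADSL, IMPDH2 and CAD were thus called with each of the 4 siRNAs. The share of all tested genes called with each of the 4 was not computed, and the 4 comparisons share the same controls. For PAICS the log2 fold changes were −1.498 ± 0.11 and −2.01 ± 0.11 with SMARCA4 siRNA A and siRNA B, and −1.13 ± 0.10 and −1.20 ± 0.10 with SMARCA1 siRNA A and siRNA C. The SMARCA4 siRNA A count fell to 5 without control replicate 1 and to 6 without SMARCA4 siRNA A replicate 1. The SMARCA1 siRNA A count fell to 3 without control replicate 1, and the siRNA C count to 4 without SMARCA1 siRNA C replicate 2.

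Among these genes some differed between the 2 SMARCA4 siRNAs. PFAS, PAICS, ADSL and CAD, 4 of 10, were lower with siRNA B than with siRNA A, where 3.04% of all tested genes were called lower. PFAS differed by −0.85 ± 0.15 (adjusted p = 0.0144) and ADSL by −0.83 ± 0.19 (adjusted p = 0.0318). PAICS differed by −0.51 ± 0.10 (adjusted p = 0.0230) and CAD by −0.43 ± 0.11 (adjusted p = 0.0416). ATIC was the only enzyme with a value above 0, at 0.14 (95% interval −0.08 to 0.35, adjusted p = 0.435). The target itself was also lower with siRNA B, SMARCA4 differing by −0.60 ± 0.15 (adjusted p = 0.0485). These calls were not stable. Without SMARCA4 siRNA A replicate 2, or without either siRNA B replicate, 0 enzymes were called by edgeR, and 1 was called without either control or either SMARCA1 siRNA C library. Between the 2 SMARCA1 siRNAs 0 of 10 enzymes were called by edgeR, with 0 at an unadjusted p below 0.05 and 0 by DESeq2, and 0.0118% of all tested genes were called in either direction. The interval of the PAICS difference there ran from −0.30 to 0.16, and that of PPAT from −0.02 to 0.80.

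**Figure D3:**
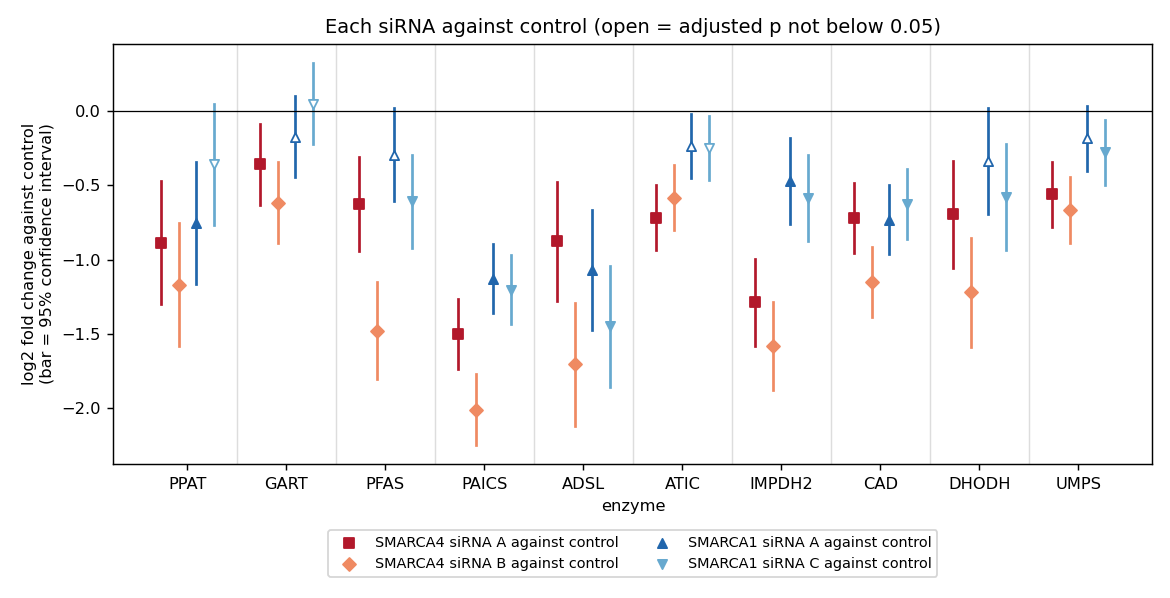
Log2 fold change of each enzyme against the 2 control libraries (y axis) for each of the 4 siRNAs, with the enzymes along the x axis, bars for the 95% confidence interval and open symbols where the adjusted p was not below 0.05. All 10 enzymes carry filled symbols with both SMARCA4 siRNAs, where 15.8% (siRNA A) and 21.9% (siRNA B) of all tested genes were called lower. PAICS, ADSL, IMPDH2 and CAD carry filled symbols with all 4 siRNAs, for which the share of all tested genes was not computed.

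PPAT and PAICS, which catalyse the first and a middle step of the same route, are neighbours on chromosome 4 and are transcribed away from each other. In GRCh38, PPAT spans chr4:56393362-56435615 on the minus strand and PAICS spans chr4:56435741-56464578 on the plus strand, so their outermost starts are 126 bases apart. The 125 bases between the starts are shown because both genes are read outwards from them. The sequence is from the RefSeq promoter table (GRCh38.p14), on the strand of PAICS, and capitals mark the 3 GC boxes, matches to CCGCCC or its complement GGGCGG.
PPAT-PAICS, chr4:56435616-56435740: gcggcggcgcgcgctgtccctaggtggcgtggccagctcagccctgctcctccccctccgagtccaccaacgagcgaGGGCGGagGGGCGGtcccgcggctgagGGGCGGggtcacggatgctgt
A GC box was present in 45.0% of all 35116 promoter windows in the table, each running from 250 bases before to 50 after a start, and in at least 1 window of 7 of the 8 enzymes that had one, UMPS being without. A second motif, the E-box CACGTG, reads the same on both strands and is bound by basic helix-loop-helix factors. It was present in 7.26% of all windows and in at least 1 window of 4 enzymes, PPAT, PAICS, ATIC and DHODH. PAICS and GART had 3 windows each, and PAICS held the E-box in 1 of them. Counts per enzyme are therefore not directly comparable with shares of windows. PPAT and PAICS share 1 copy, which lies downstream of the start of PAICS. The windows of GART, PFAS, CAD and UMPS held none, and no window was found for ADSL and IMPDH2. The 4 copies are shown with 12 bases on each side, on the strand of the named gene, with the E-box in capitals.
PPAT and PAICS, chr4:56435780-56435809, minus strand: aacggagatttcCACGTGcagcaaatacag
ATIC, chr2:215312001-215312030, plus strand: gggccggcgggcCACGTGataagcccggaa
ATIC, chr2:215312076-215312105, plus strand: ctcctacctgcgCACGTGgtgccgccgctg
DHODH, chr16:72008573-72008602, plus strand: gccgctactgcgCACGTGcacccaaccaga
These are matches of letters only. Enzymes with and without an E-box in the window fell in SMARCA4 knockdown, from −1.75 (PAICS) to −0.65 (ATIC) with it and from −1.05 (PFAS) to −0.49 (GART) without it. IMPDH2 and ADSL, which had no window, are in neither range. Sequence outside the windows was not searched, and the part of the E-box in the fall was not tested.

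The balance of PAICS and PPAT was followed within each library. Per exon length, PAICS exceeded PPAT 3.70-fold and 3.96-fold in the 2 control libraries. The ratio was 2.27 and 2.77 with SMARCA4 siRNA A, 2.12 and 2.15 with SMARCA4 siRNA B, 3.56 and 2.54 with SMARCA1 siRNA A, and 2.25 and 2.02 with SMARCA1 siRNA C. All 8 knockdown libraries were below both controls, and the SMARCA1 siRNA A library nearest to them, replicate 1, was also the one with the lowest PPAT. PAICS was number 248 of 16899 from the strongest fall in SMARCA4 and number 1008 in SMARCA1 knockdown, so it fell relative to most genes. Whether the ratio to PPAT separates the libraries more than ratios to other genes was not tested. On the log2 scale the ratio was 1.94 ± 0.07 (SD, n = 2) in the controls, 1.21 ± 0.18 (SD, n = 4) in SMARCA4 and 1.34 ± 0.35 (SD, n = 4) in SMARCA1 knockdown. An exact two-sided permutation test of SMARCA4 against SMARCA1 knockdown found a difference of −0.13 (p = 0.657, 70 arrangements, smallest possible p 0.0286). Without SMARCA1 siRNA A replicate 1 that difference was 0.03 (exact permutation p = 0.771). Against the 2 controls, where 15 arrangements cannot give a p under 0.0667, the exact permutation p was 0.0667 for SMARCA4 and 0.133 for SMARCA1 knockdown.

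**Figure D4:**
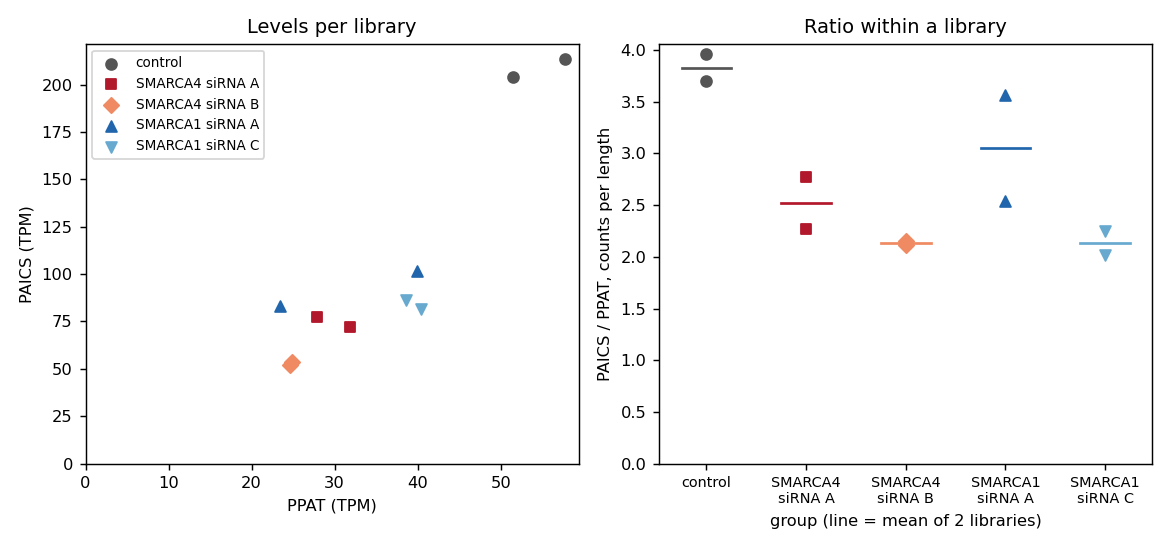
Left, PAICS (y axis) against PPAT (x axis) in TPM, with 1 point per library. Right, the ratio of PAICS to PPAT in counts per exon length in each library (y axis) by group (x axis), with a line at the mean of the 2 libraries. The controls lie at ratios of 3.70 and 3.96, and the knockdown libraries between 2.02 and 3.56.

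Other enzymes of the set also start close to a gene on the opposite strand. GART starts 453 bases from SON, which encodes a splicing cofactor of nuclear speckles. SON had log2 fold changes of 0.22 ± 0.14 (adjusted p = 0.234) in SMARCA4 and 0.11 ± 0.14 (adjusted p = 0.571) in SMARCA1 knockdown. PFAS starts 438 bases from CTC1, a subunit of the telomere-binding CST complex. CTC1 had a value of −0.12 ± 0.16 (adjusted p = 0.552) in SMARCA4 knockdown, where PFAS fell the more, and fell by 0.73 ± 0.16 (adjusted p = 0.00377) in SMARCA1 knockdown. IMPDH2 starts 131 bases from the unnamed gene RP13-131K19.6, which rose by 0.64 ± 0.20 (adjusted p = 0.0260) in SMARCA4 and by 0.88 ± 0.20 (adjusted p = 0.00559) in SMARCA1 knockdown, from 2.67 and 2.45 CPM in the controls. Exons of RP13-131K19.6 cover 2.58% of the exon bases of IMPDH2 on the other strand. UMPS starts 11 bases from RP11-71H17.9, which had 0 counts in all libraries. The counts were strand-aware as far as the files show, since of 815 genes lying wholly within exons of genes on the other strand, 218 had 10 counts or more. For the 4 targeting siRNA sequences the study lists, the longest run shared with any annotated transcript of the 10 enzymes, on either strand, was 10 to 13 bases. Which listed sequence is which lettered siRNA is not stated. Whether such short matches affect the enzymes was not tested.

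Across the 10 libraries the enzymes moved with PAICS to different degrees. The correlation of log2 CPM with PAICS was 0.97 for CAD, 0.92 for UMPS and DHODH and 0.91 for IMPDH2. It was 0.89 for PFAS, 0.88 for PPAT, 0.87 for ADSL, 0.84 for ATIC and 0.74 for GART. The points of these correlations are the same 10 libraries, which fall into controls and knockdowns, so they describe the group differences again. Of all other tested genes, the 5 most like PAICS over these libraries were RRP15 (r = 0.994), EIF3E (0.993), SNHG4 (0.990), ENOPH1 (0.988) and EXOSC2 (0.987). RRP15 takes part in ribosome assembly, EIF3E is a subunit of a translation initiation factor, SNHG4 hosts small nucleolar RNAs, ENOPH1 acts in methionine salvage and EXOSC2 is a subunit of the RNA exosome. Their log2 fold changes in SMARCA4 knockdown ran from −2.10 for SNHG4 to −0.69 for ENOPH1, and in SMARCA1 knockdown from −1.31 to −0.43 for the same genes.

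The wider nucleotide metabolism was examined with 70 other genes, of which 65 passed the filter on low counts. In SMARCA4 knockdown 34 of 65 were called lower and 9 higher, where 22.3% of all tested genes were called lower and 22.8% higher. In SMARCA1 knockdown 20 were called lower and 12 higher, where 23% of all tested genes were called lower and 23.8% higher. In SMARCA4 against SMARCA1 knockdown 32 were lower and 5 higher, where 19.1% of all tested genes were lower and 16.3% higher. Their medians were −0.44, −0.18 and −0.25 on the log2 scale, nearer to 0 than those of the 10 enzymes (−0.99, −0.49 and −0.45). The count in SMARCA1 knockdown, 32 in both directions, was 19 without control replicate 1 and 21 without control replicate 2. CDA, AMT, ALDH1L1, DPYS and AMPD1 had too few counts and were not tested. For these genes a pair of values gives the log2 fold change in SMARCA4 and then in SMARCA1 knockdown.

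Of 15 genes for the other steps of synthesis, 9 were called lower and 1 higher in SMARCA4 knockdown, where 22.3% and 22.8% of all tested genes were. In SMARCA1 knockdown 4 of 15 were called lower and 3 higher, near the 23% and 23.8% of all tested genes. NME1, a nucleoside diphosphate kinase, fell, at −1.34 ± 0.14 (adjusted p = 7.06e-05) in SMARCA4 knockdown and had a value of −0.18 (adjusted p = 0.317) in SMARCA1 knockdown, a difference of −1.15 (adjusted p = 0.000163). PRPS1, which makes the phosphoribosyl pyrophosphate used by PPAT and UMPS, fell in both, at −1.03 (adjusted p = 7.51e-05) and −0.63 (adjusted p = 0.00140). CTPS1, which makes cytidine triphosphate, fell, at −0.83 (adjusted p = 6.11e-05) in SMARCA4 knockdown and was at −0.13 (adjusted p = 0.248) in SMARCA1 knockdown. GUK1, the guanylate kinase, rose by 0.64 (adjusted p = 0.00410) in SMARCA1 knockdown.

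For deoxynucleotide supply, 6 of 9 genes were called lower in SMARCA4 and 7 of 9 in SMARCA1 knockdown, where 22.3% and 23% of all tested genes were. The medians of this list were −0.81 and −0.47, the second close to the −0.49 of the 10 enzymes. TYMS, which makes thymidylate, fell, at −1.12 (adjusted p = 1.03e-05) and −0.76 (adjusted p = 0.000115), and RRM1, the large subunit of ribonucleotide reductase, at −0.86 (adjusted p = 4.98e-05) and −0.44 (adjusted p = 0.00251). The 1 gene that rose was CMPK2, a mitochondrial nucleotide kinase known to be induced by interferon, by 6.63 (adjusted p = 6.27e-07) and 6.62 (adjusted p = 1.02e-06).

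Salvage, the reuse of bases and nucleosides, had 7 of 13 genes called lower and 1 higher in SMARCA4 knockdown (22.3% and 22.8% of all tested genes), and 4 lower and 2 higher in SMARCA1 knockdown (23% and 23.8% of all tested genes). APRT, which recycles adenine, fell, at −1.08 (adjusted p = 7.43e-05) in SMARCA4 knockdown and was at −0.31 (adjusted p = 0.0536) in SMARCA1 knockdown. HPRT1, which recycles hypoxanthine and guanine, fell, at −0.995 (adjusted p = 0.000169) and −0.39 (adjusted p = 0.0270). TK2, the mitochondrial thymidine kinase, rose by 0.52 (adjusted p = 0.00747) and 0.92 (adjusted p = 0.000393).

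In the folate and serine supply of one-carbon units, which GART and ATIC use, 9 of 15 genes were called lower and 2 higher in SMARCA4 knockdown, where 22.3% and 22.8% of all tested genes were. In SMARCA1 knockdown 3 of 15 were called lower and 2 higher, no larger shares than the 23% and 23.8% of all tested genes. SLC19A1, the reduced folate carrier, fell, at −1.01 (adjusted p = 0.000195) in SMARCA4 knockdown and was at −0.03 (adjusted p = 0.850) in SMARCA1 knockdown. MTHFD1, the cytosolic enzyme that makes formyl tetrahydrofolate, fell, at −0.97 (adjusted p = 2.13e-05) and was at −0.20 (adjusted p = 0.0683). ALDH1L2, a mitochondrial enzyme that oxidises formyl tetrahydrofolate, fell, at −2.02 (adjusted p = 0.00450) in SMARCA1 knockdown. This value rests on few reads, 13 and 18 counts in the controls and 3 to 6 in SMARCA1 knockdown, near the floor of 3. The SMARCA4 knockdown libraries held 5 to 11 counts.

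Of 13 genes of nucleotide breakdown, 3 were called lower and 4 higher in SMARCA4 knockdown, and 2 lower and 4 higher in SMARCA1 knockdown. Of all tested genes, 22.3% were called lower and 22.8% higher in SMARCA4 knockdown, and 23% and 23.8% in SMARCA1 knockdown, so the list was near the background in SMARCA4 knockdown. SAMHD1, which destroys deoxynucleotide triphosphates and is known to respond to interferon, rose by 3.18 (adjusted p = 2.87e-06) and 3.43 (adjusted p = 2.17e-06). NT5C3A, a nucleotidase, rose by 1.59 (adjusted p = 0.00247) and 1.999 (adjusted p = 0.000827). ADA, adenosine deaminase, fell, at −1.39 (adjusted p = 0.000492) and −0.65 (adjusted p = 0.0230). XDH, which makes uric acid, fell, at −0.58 (adjusted p = 0.00613) and −1.11 (adjusted p = 0.000201), and the difference of 0.53 between the knockdowns was called (adjusted p = 0.00616).

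**Figure D5:**
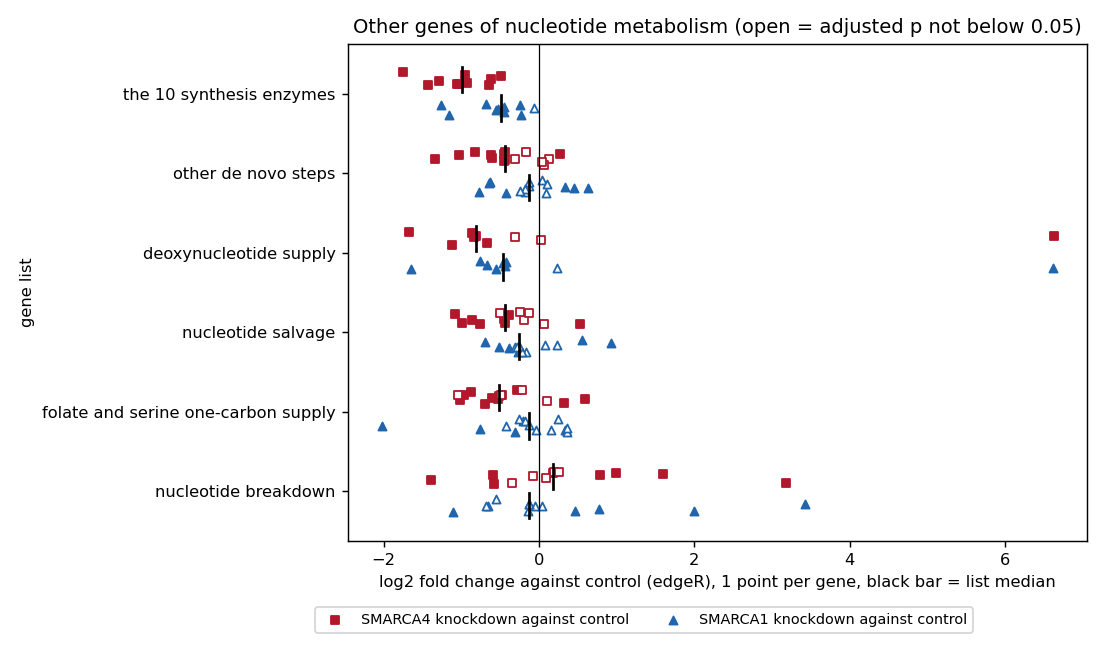
Log2 fold change against control (x axis) of each tested gene in 6 lists of nucleotide metabolism (y axis), for SMARCA4 and SMARCA1 knockdown, with filled symbols where the adjusted p was below 0.05 and a black bar at the median of each list. The 10 synthesis enzymes have the lowest medians, −0.99 and −0.49, with deoxynucleotide supply next at −0.81 and −0.47, close to the enzymes in SMARCA1 knockdown. CMPK2 stands far to the right at 6.63 and 6.62.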

How the data were processed

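RNA of VCaP cells was converted by the authors into directional libraries after poly(A) selection, aligned to GRCh38 with HISAT2 2.1.0 and counted with featureCounts 1.5.2, per the labels and the submitters' processing notes. The GENCODE release is not given in the sources used here. The deposited values are raw counts per gene, without normalization.

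Groups came from the sample labels. Genes were filtered with filterByExpr (minimum count 10, minimum total 15), which left 16899, and normalized by TMM. The quasi-likelihood test of edgeR 4.0.16 (R 4.3.3) was fitted to all 10 libraries as 5 groups, each knockdown being the mean of its 2 siRNA groups, with Benjamini-Hochberg adjustment over all tested genes and calls at 0.05. A standard error is the size of the log2 fold change over the root of the F statistic. Intervals are at 95%. CPM uses TMM-scaled totals, and TPM uses the exon length in the files. Coordinates are those of the files, and promoter windows those of RefSeq.

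The members and the gene lists were chosen with earlier results of these data known. The genes named are the 10 enzymes, the targets, neighbours starting within 1000 bases on the other strand, the 5 genes most correlated with PAICS, and up to 3 called genes per direction with the largest change in each list. Some genes of these lists entered the counts but are not reported here by name. DESeq2 1.42.0, other normalizations and filters, a replicate block, a minimum fold, fewer groups and each library left out were tried.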

Additional observations from a re-analysis of the deposited data

Results flagged for a closer look

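In 4 results the effect differed between groups under the same contrast, in each case between the siRNAs of SMARCA4, where the difference of siRNA B and siRNA A was itself tested with edgeR. PFAS was lower with siRNA B by −0.85 on the log2 scale (adjusted p = 0.0144) and PAICS by −0.51 (adjusted p = 0.0230). ADSL was lower by −0.83 (adjusted p = 0.0318) and CAD by −0.43 (adjusted p = 0.0416). These calls were not stable, since 0 of the 10 enzymes were called by edgeR without SMARCA4 siRNA A replicate 2 or either siRNA B library, and 1 was called in the fit of the SMARCA4 siRNA groups alone. No library stood apart from the other 3 of its knockdown by Dixon's test for any of the 10 enzymes, in 20 groups of 4 examined.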

How the results depend on the processing

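Of the 10 enzymes' log2 fold changes under 19 alternatives each, 189 of 190 in SMARCA4 knockdown, 156 of 190 in SMARCA1 knockdown and 172 of 190 between the knockdowns kept their direction and their side of the threshold. The exceptions lost their call, in 1, 34 and 14 cases, or changed sign. Changes of sign came from ADSL between the knockdowns, at −0.11 to 0.073 with each library left out, above 0 without SMARCA1 siRNA A replicate 1, SMARCA1 siRNA C replicate 2, SMARCA4 siRNA A replicate 1 or SMARCA4 siRNA B replicate 1. The PAICS to PPAT ratio between the knockdowns ran from −0.24 to 0.033 with a library left out. With an absolute log2 fold change of at least 0.5 required, 5 enzymes were called in SMARCA1 knockdown and 4 between the knockdowns, other nucleotide genes numbered 20 and 18, and 3523 of all genes were called between the knockdowns. In the fit of the SMARCA4 siRNA groups alone, 1 enzyme was called between them. With each library left out, the enzymes called ran from 4 to 9 in SMARCA1 knockdown, 7 to 9 between the knockdowns, 5 to 10 with SMARCA4 siRNA A, 3 to 6 with SMARCA1 siRNA A, 4 to 9 with SMARCA1 siRNA C, 0 to 5 between the SMARCA4 siRNAs and 0 to 1 between the SMARCA1 siRNAs. Other nucleotide genes called in SMARCA1 knockdown ran from 19 to 39. All genes called ran from 4413 to 9183 in SMARCA4 knockdown, 4430 to 9557 in SMARCA1 knockdown and 3683 to 8072 between them. The causes were not tested, and leaving out a control leaves that arm with 1 library, assumed to vary like the other groups. The groups did not vary alike, although the fit shares the spread over all 5. The chi-square per gene, a measure of how far the 2 libraries of a group differ, was 5.94 in the controls. It was 3.69 with SMARCA1 siRNA C, 55.8 with SMARCA1 siRNA A, 39.9 with SMARCA4 siRNA A and 21.4 with SMARCA4 siRNA B. The deviations of same-numbered replicates correlated at r from −0.10 to 0.36, over 0.1 in 3 of 10 pairs of groups, so the numbers were not taken to pair the libraries. With the replicate block 10 enzymes were called in SMARCA4 knockdown, 8 in SMARCA1 knockdown and 9 between them and 4 between the SMARCA4 siRNAs, and the PAICS to PPAT ratio had an exact permutation p of 0.778. Depth limits DHODH and ADSL, the enzymes with the fewest counts.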
